A study of Ovis aries with 18 samples.

Results

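The contrast between early long photoperiod and prolonged short photoperiod was examined in RNA from the pars tuberalis (PT) of the sheep, in the LP4 and SP16 groups, and is described here as the step from a winter-like to a spring-like day length. LP4 animals had spent 4 weeks on long photoperiod (LP), with 16 h light and 8 h dark each day. SP16 animals had spent 16 weeks on short photoperiod (SP), with 8 h light and 16 h dark each day. All were neutered male Scottish blackface sheep with no genetic alteration given in the labels, and their ages, the light regime before the stated weeks and the time of day of sampling are not given in the sources used here. The groups were taken from the labels, and the members are LP4 samples 1, 2 and 4 and SP16 samples 1 to 4. They are 7 of the 16 animals and 7 of the 18 libraries of the series. LP4 sample 2 entered through its repeat library only. The first library of that sample and the library of LP4 sample 3 were left out. The labels do not call for this exclusion, which was chosen with earlier results of these data known. The other 2 groups, SP on 4 weeks (SP4, n = 4) and LP on 22 weeks (LP22, n = 4), were used to estimate the spread and to place the LP4 and SP16 values. LP4 and SP16 differ both in day length and in the number of weeks, and these cannot be told apart in this contrast. The labels number the samples within a group and are taken here to name separate animals, so the p-values measure the spread between these samples.

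The PT is the thin sleeve of the pituitary that wraps its stalk, and it is rich in melatonin receptors. Night-time melatonin tells its thyrotroph-like cells how long the night is. On long days these cells raise the coactivator EYA3 and the beta subunit of thyrotropin, which acts on tanycytes of the neighbouring hypothalamus to alter local thyroid hormone and, through it, seasonal reproduction. The secretory granule protein chromogranin A marks the short-day state of the same cells. The count files list Ensembl gene IDs and do not pair them with gene names, and 0 of their 25197 IDs matched the reference gene table, so neither these genes nor the markers of thyrotrophs, folliculostellate cells, tanycytes or blood were looked up. Names that the study gives to some IDs were not used here. The tissue label was therefore not checked against its markers, and genes are given as groups, with 4 of them named by ID. In a whole-tissue sample, fewer cells of a type and less RNA per cell cannot be told apart.

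The libraries used held from 2258192 to 3793151 counts over genes in LP4 and from 1936181 to 2690509 in SP16. Among the LP4 animals, animal 2 stood apart. Its 10 most counted genes took 59.2% of its gene counts, against 39.2% to 43.3% in the other 6 libraries. Its TMM scaling factor was 0.633, against 0.989 to 1.08. Of its reads 63.6% were not aligned, against 51.0% to 52.4% in the other 6. Of its aligned reads 78.6% lay in no counted feature, against 81.5% to 83.0%. Across genes, its log2 CPM values (CPM, counts scaled to a common library size) correlated with those of LP4 animals 1 and 4 at r = 0.934 and 0.930, while these correlated with each other at 0.965 and the SP16 animals among themselves at 0.950 to 0.962. Over all 14 other animals its median r was 0.922, as was that of LP22 animal 2, against 0.940 to 0.953 for the rest. The main counts and sizes are therefore given with and without LP4 animal 2.

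The LP4 libraries left out differed more. The library labelled LP4 animal 3 held 6331553 gene counts, 65.2% of them in its 10 most counted genes, and 47.2% of its aligned reads lay in no counted feature, against 78.6% to 83.0% in the 7 libraries used. The first library labelled LP4 animal 2 held 1088288 gene counts, with 68.8% of aligned reads in no feature. In it 84.3% of reads were not aligned, against 51.0% to 63.6% in the libraries used. Both the 63.6% and the 78.6% belong to the repeat library of LP4 animal 2. The part of these differences in the results was not tested. The pair of libraries labelled LP4 animal 2 also differed in the genes described here, and the counts do not settle whether these LP4 libraries carry the right labels. The 3 LP4 libraries used are placed in that group by their labels as they stand. Leaving out the library of animal 3 and the first library of animal 2 was a choice that the labels do not give.

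Of 13446 genes tested, 240 differed between LP4 and SP16 at a false discovery rate (FDR, the Benjamini-Hochberg adjusted p-value of edgeR's quasi-likelihood test) under 0.05, which is 1.78% of the genes tested. In LP4, 148 genes were higher (1.1%) and 92 were lower (0.684%). At an unadjusted p under 0.05 there were 1973 genes, or 14.7%. The genes higher in LP4 had a median log2 fold change of 1.03, a 2.04-fold difference, and ranged from 0.38 to 5.57. The genes lower in LP4 had a median of −0.90, a 1.87-fold difference, and ranged from −4.56 to −0.38. TMM scaling sets the bulk of genes near 0, and the median over all genes tested was −0.0022. Most of the differences were modest in size. Of the 148 higher genes, 71 differed by less than 1 on the log2 scale, and of the 92 lower genes, 56 did. Large differences lay mainly on the LP4 side: 34 higher genes and 8 lower genes differed by at least 2 on the log2 scale, and 5 and 1 by at least 4. Without LP4 animal 2 the medians of the genes called were 1.00 and −0.84, 19 higher and 6 lower genes differed by at least 2, and 5 and 0 by at least 4.

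The called genes averaged from 1.91 to 3535 CPM over the 7 animals, while the genes tested averaged from 0.257 to 103718 CPM. Among genes with a mean of 1 to 10 CPM over the 7 animals, 0.842% of the 4036 tested were called. The share was 1.94% of 8249 genes at 10 to 100 CPM and 3.98% of 1155 genes at 100 CPM or more. The size of the called differences ran the other way, with a median of 3.14-fold in the lowest of these classes, 1.90-fold in the middle and 1.55-fold in the highest. In the classes from low to high, 23, 93 and 32 genes were higher in LP4 and 11, 67 and 14 were lower. None of the 6 tested genes under 1 CPM was called. Without LP4 animal 2 the shares called in these classes were 0.471%, 1.02% and 2.54%, with medians of 4.78-fold, 1.85-fold and 1.71-fold.

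**Figure D1:**
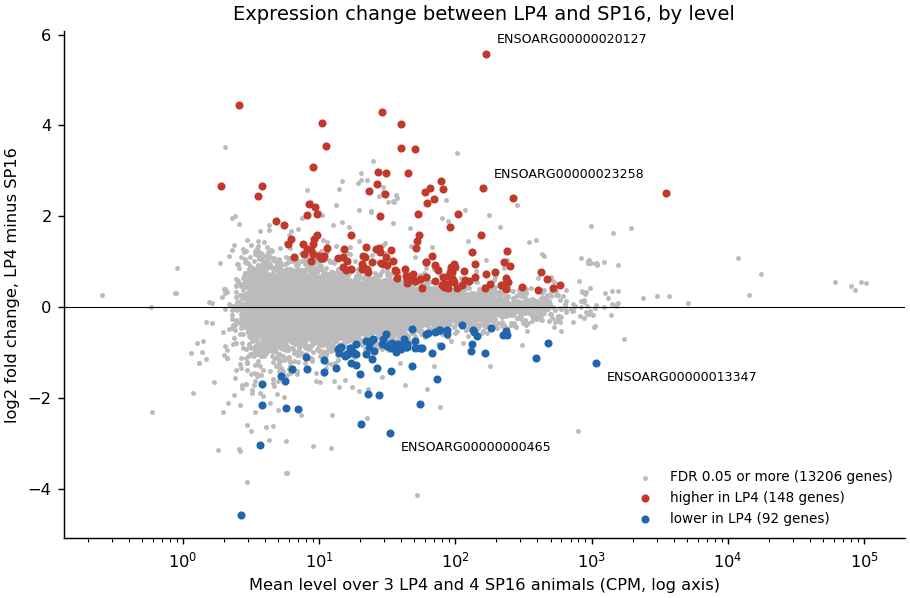
Log2 fold change of each tested gene (LP4 minus SP16) against its mean level over the 3 LP4 and 4 SP16 animals (CPM, log axis). Red points are the 148 genes higher and blue points the 92 genes lower in LP4 at FDR under 0.05, grey points are the other genes, and the 4 named genes carry their IDs; small differences pass the test mostly at higher levels.

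The individual animals were separated in most of the called genes. In 136 of the 148 higher genes all 3 LP4 animals lay above all 4 SP16 animals, an arrangement found in 5.92% of all genes tested, and in 88 of the 92 lower genes all LP4 animals lay below all SP16 animals, against 5.91% of all genes. These counts, and the sums that follow, come from the same contrast that called the genes and describe it. Their separation is partly fixed by that choice. Summed over the 92 lower genes, the level was 4149 to 4254 CPM in the 3 LP4 animals and 7264 to 8240 CPM in the 4 SP16 animals. The LP4 sums lay close together and did not overlap those of SP16, but single genes in them could differ between LP4 animals. ENSOARG00000013347 was at 991 CPM in LP4 animal 2 and at 431 and 406 CPM in animals 1 and 4. Summed over the 148 higher genes, the level was 16385 CPM in LP4 animal 1, 15222 CPM in animal 4 and 36693 CPM in animal 2, against 8807 to 9924 CPM in SP16. All 3 LP4 sums were above the SP16 range, and that of animal 2 was far above the other two.

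The excess in LP4 animal 2 came from few genes. In 14 of the 148 higher genes its level was over 4 times the mean of LP4 animals 1 and 4. These 14 genes summed to 21956 CPM in animal 2, to 1806 CPM in animal 1 and 1505 CPM in animal 4, and to 1010 to 1715 CPM in SP16. Animals 1 and 4 were thus at or near the SP16 level, and 0 of the 14 were called when animal 2 was left out. The other 134 higher genes summed to 13716 to 14737 CPM in the 3 LP4 animals and to 7798 to 8209 CPM in SP16. Animal 2 was close to its group in this sum, which the removal of the 14 genes by its own level partly fixes. The distance from SP16 is likewise partly fixed by the calls. Animal 2 was the most extreme of the LP4 animals in 79 of the 148 higher genes, against 37.3% of all genes tested, and in 52 of the 92 lower genes, against 39.3%. Without animal 2, 135 genes were called, 97 higher and 38 lower, and 112 of them were among the 240 (80 higher, 32 lower). The calls lost were 68 of the higher and 60 of the lower genes. Whether the state of that library or of that animal accounts for the 14 genes was not tested.

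Across the 7 fits that each left out 1 LP4 or SP16 animal, 87 of the 240 genes were called every time, 58 higher and 29 lower in LP4. The absolute log2 fold change of these 87 had a median of 0.99. The number of calls ran from 114, without SP16 animal 2, to 321, without LP4 animal 4. Without SP16 animal 3 the directions were about even, with 96 genes higher and 98 lower.

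**Figure D2:**
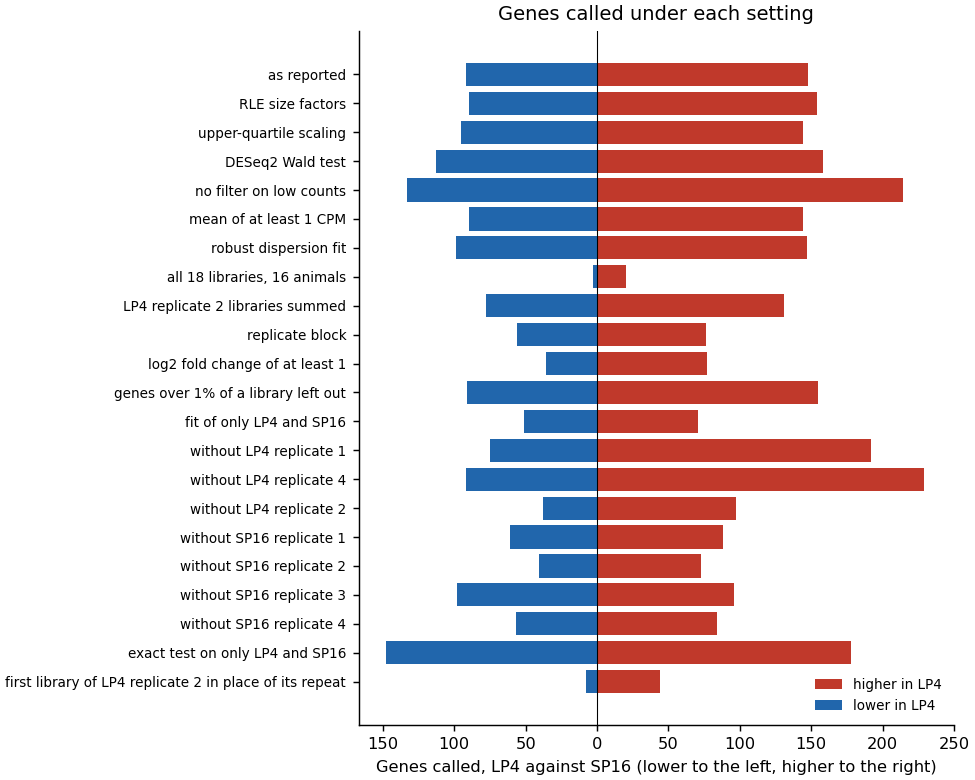
Number of genes called between LP4 and SP16 (horizontal axis, FDR under 0.05) in the reported fit and under each other setting, with genes higher and lower in LP4 drawn apart and animals labelled as replicates. The count is 240 in the reported fit, 135 without LP4 animal 2 and 23 when all libraries enter.

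Among the genes that rose, ENSOARG00000020127 had the largest fold change of those that the naming rule admitted (called genes that averaged 10 CPM or more and did not overlap between the groups). Its level was 538, 277 and 328 CPM in LP4 animals 1, 2 and 4, and 7.70, 2.43, 2.77 and 21.0 CPM in SP16 animals 1 to 4. Every LP4 animal was more than 10 times above the highest SP16 animal. The log2 fold change was 5.57 ± 0.49 (SE; FDR = 5.47e-06, edgeR), with means of 381 ± 138 CPM (SD, n = 3) and 8.47 ± 8.69 CPM (SD, n = 4). In the groups not used for this contrast, its level was 1.39 to 11.3 CPM in SP4 and 147 to 320 CPM in LP22. Both long photoperiod groups were thus high and both short photoperiod groups low, and LP22 minus SP4 was 5.90 on the log2 scale (FDR = 2.28e-06). Without LP4 animal 2, LP4 minus SP16 was 5.76 (FDR = 5.65e-06).

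ENSOARG00000020127 also had the largest difference in mean CPM among the genes the rule admitted, and ENSOARG00000023258 had the next largest among them. The latter is 1 of the 14 genes above. Its level was 65.3, 792 and 57.5 CPM in LP4 animals 1, 2 and 4, and 52.5, 34.5, 54.7 and 56.9 CPM in SP16 animals 1 to 4. Animal 2 alone was high; the other LP4 animals lay just above the SP16 range. The log2 fold change was 2.61 ± 0.62 (SE; FDR = 0.0376, edgeR), and without animal 2 it was 0.30 (FDR = 0.777). SP4 animals had 40.8 to 107 CPM and LP22 animals 45.0 to 55.1 CPM.

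Among the genes that fell, ENSOARG00000000465 had the largest fold change under the same rule. Its level was 9.39, 1.68 and 12.2 CPM in LP4 animals 1, 2 and 4, and 40.7, 55.8, 90.8 and 21.5 CPM in SP16 animals 1 to 4. The groups did not overlap, but the gap between them was narrower than the range of the SP16 animals. The log2 fold change was −2.77 ± 0.53 (SE; FDR = 0.0107, edgeR), and without LP4 animal 2 it was −2.30 (FDR = 0.0440). SP4 animals had 13.9 to 30.7 CPM and LP22 animals 4.31 to 19.4 CPM, and LP22 minus SP4 was −1.05 (FDR = 0.326), which did not pass the threshold.

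ENSOARG00000013347 had the largest fall in mean CPM. Its level was 431, 991 and 406 CPM in LP4 animals 1, 2 and 4, and 1417, 1412, 1493 and 1404 CPM in SP16 animals 1 to 4. All LP4 animals were below SP16, with animal 2 nearest to it. The log2 fold change was −1.23 ± 0.31 (SE; FDR = 0.0499, edgeR), at the edge of the threshold. Without animal 2 it was −1.77 (FDR = 0.00289), while the call was lost in 13 of 21 other settings. SP4 animals had 891 to 1402 CPM and LP22 animals 138 to 354 CPM, and LP22 minus SP4 was −2.42 (FDR = 0.000104).

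**Figure D3:**
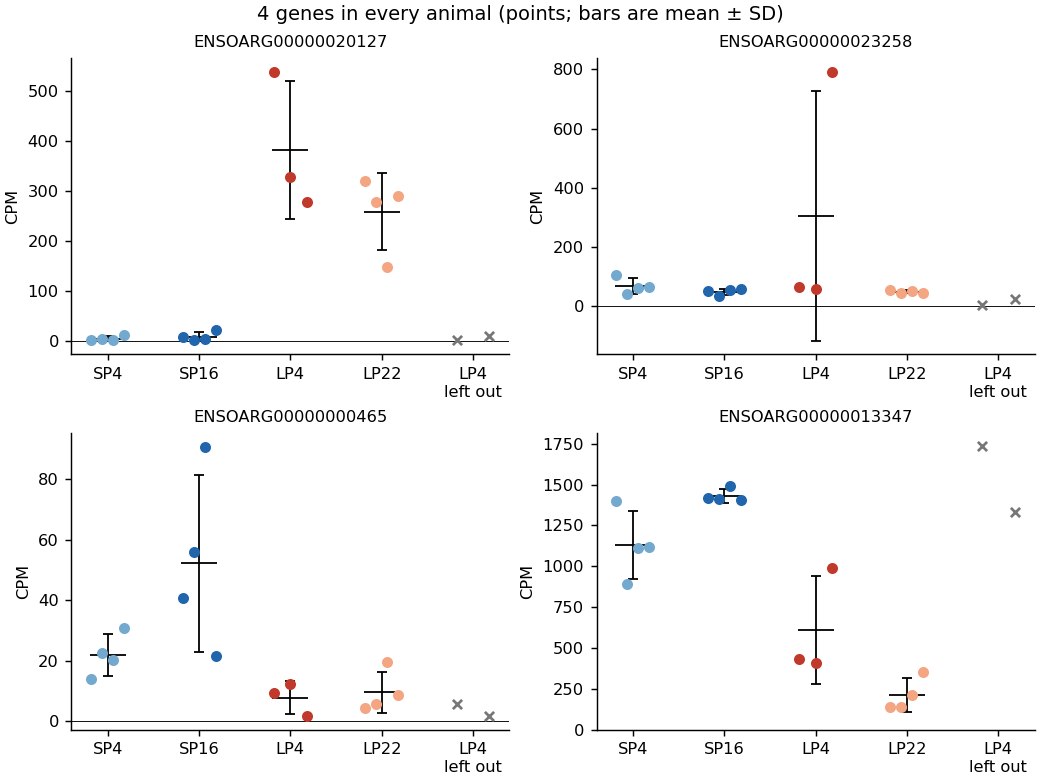
Level of the 4 named genes in each animal (CPM, linear axis) by group, with dots for animals, black bars for the group mean ± SD, and crosses for the LP4 libraries left out. ENSOARG00000020127 is high in both long photoperiod groups, while ENSOARG00000023258 is high in LP4 animal 2 alone.

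LP22 against SP4 is the other contrast of long with short photoperiod that shares no animal with LP4 against SP16, although all 4 groups entered a single fit. In it, 241 genes were higher in LP22 (1.79% of the genes tested) and 135 were lower (1%). Of the 148 genes higher in LP4, 75 were also called higher in LP22 and 0 lower. These are 50.7% of the 148 and 31.1% of the 241. Of the 92 genes lower in LP4, 35 were also called lower in LP22 and 0 higher, which is 38.0% of the 92 and 25.9% of the 135. The sign was shared by 134 of the 148 higher genes, or 90.5%, where 49.8% of all genes tested had a positive sign, and by 80 of the 92 lower genes, or 87.0%, where 50.2% of all genes had a negative sign. All LP22 animals lay above all SP4 animals in 83 of the 148 genes, against 5.07% of all genes tested, and below them in 48 of the 92, against 4.41%.

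The differences were smaller in LP22 against SP4 than in the contrast that chose the genes. The median log2 fold change of the higher genes was 0.55 there, beside 1.03 in LP4 against SP16, and that of the lower genes was −0.48, beside −0.90. The genes were selected for a large difference in LP4 against SP16, so the larger median on that side is partly fixed by the choice. A direct test of the difference between the contrasts called 0 genes with edgeR (lowest FDR = 0.0983), with 1180 genes (8.78%) at an unadjusted p under 0.05, and 31 genes with DESeq2. Whether any gene was called in this test thus depended on the tool and, within edgeR, on the setting. With edgeR, 25 genes were called with no filter on low counts and 36 without SP16 animal 3. In all of these, and in 29 of the 31 with DESeq2, LP4 minus SP16 was lower (as a signed value) than LP22 minus SP4.

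LP22 against SP4 was also read for sets of calls that rest on LP4 animal 2 to different degrees. Over all genes tested, 1.79% were called higher and 1% lower in it, and 49.8% had a positive and 50.2% a negative sign. Each fit behind these sets also used the LP22 and SP4 animals to estimate the spread. The calls in the contrasts are therefore not fully separate. Of the 58 higher genes called in all 7 leave-one-out fits, 58 had the same sign and 46 (79.3%) were called. Of the 29 lower genes, 28 had the same sign and 12 (41.4%) were called. Of the 68 higher genes lost without animal 2, 54 had the same sign and 16 (23.5%) were called, and of the 60 lower genes lost, 50 had the same sign and 21 (35%) were called. Of the genes called without animal 2 that were tested in the reported fit, 64 of 96 higher (66.7%) and 16 of 37 lower (43.2%) were called in LP22 against SP4. Of the 14 genes in which animal 2 was over 4 times the other LP4 animals, 2 had the same sign and 0 were called. The genes called without animal 2 come from another fit, and 80 higher and 32 lower of them were among the 148 and 92. The other sets are overlapping subsets of the 148 and 92 genes. All these shares are descriptions, and their difference was not tested.

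**Figure D4:**
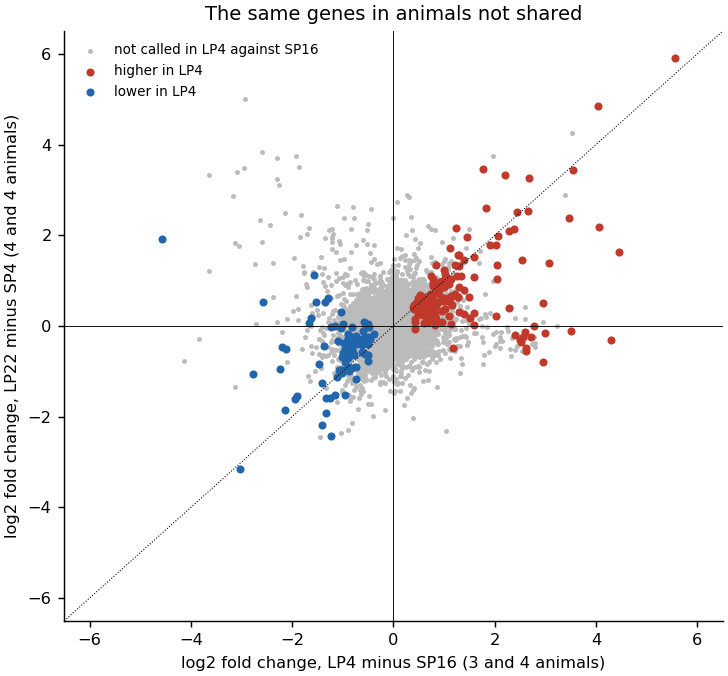
Log2 fold change of LP22 minus SP4 (vertical axis) against that of LP4 minus SP16 (horizontal axis) for each tested gene, with the 148 genes higher and 92 genes lower in LP4 in colour. Of the higher genes 134, and of the lower genes 80, have the same sign in both contrasts, and the dotted line marks equal values.

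The position of SP4 was between LP4 and SP16 but nearer to SP16. For the 148 higher genes, the median log2 fold change was 0.78 for LP4 minus SP4 and −0.20 for SP16 minus SP4. For the 92 lower genes the medians were −0.61 and 0.27. LP22 lay near LP4: LP22 minus SP16 had medians of 0.78 and −0.80, and LP22 minus LP4 of −0.11 and 0.08. These contrasts share LP4 or SP16 animals with the one that chose the genes, and the values are given side by side only. As the genes were selected for a large difference between LP4 and SP16, the place of SP4 between them is partly fixed by the choice. Summed over the 134 higher genes that excluded the 14, LP22 animals had 12055 to 15179 CPM and SP4 animals 8523 to 8757 CPM. Summed over the 92 lower genes, LP22 animals had 3531 to 4176 CPM and SP4 animals 6067 to 6557 CPM. In both sums the LP22 animals did not overlap the SP4 animals.

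Over the called genes taken as a set, the LP4 libraries left out did not share this profile. Relative to the mean of SP16, the median log2 CPM of the 148 higher genes was 0.86, 1.07 and 0.75 in LP4 animals 1, 2 and 4 and 0.64 to 0.87 in the LP22 animals. In the library labelled LP4 animal 3 it was −1.03. The first library labelled as animal 2 had 0.11. For the 92 lower genes the medians were −0.80, −0.96 and −0.84 in LP4 animals 1, 2 and 4, 0.64 in LP4 animal 3 and −0.17 in the first library of animal 2. LP4 animal 3 thus lay on the far side of SP16 for both groups of genes.

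Set against the SP4 animals, which no rule of the choice used, LP4 animal 3 lay above all 4 in 40 of the 148 higher genes (27.0%), where it did so in 44.5% of all genes tested. It lay below all 4 in 28 of the 92 lower genes (30.4%), against 46.8% of all genes. The first library of LP4 animal 2 lay above all SP4 animals in 53 of the 148 genes (35.8%), against 38.9% of all genes, and below them in 33 of the 92 (35.9%), against 41.6%. Neither library stood above these backgrounds. By comparison, each LP22 animal lay above all SP4 animals in 62.2% to 80.4% of the higher genes and in 22.7% to 26.2% of all genes. ENSOARG00000020127 was at 1.21 CPM (5 counts) in LP4 animal 3 and at 8.89 CPM (10 counts) in the first library labelled as animal 2. The former was just below the lowest short photoperiod animal (1.39 CPM) and the latter within the range of those animals, although the repeat library labelled with the same animal had 277 CPM. In the same order, ENSOARG00000000465 was at 5.79 and 1.78 CPM. Both values lay within the LP4 range (1.68 to 12.2 CPM) and below SP16 (21.5 to 90.8 CPM). ENSOARG00000013347 was at 1733 and 1333 CPM, against 406 to 991 CPM in LP4 and 1404 to 1493 CPM in SP16. ENSOARG00000023258 was at 3.14 and 23.1 CPM, below both LP4 (57.5 to 792 CPM) and SP16 (34.5 to 56.9 CPM). When all libraries entered, with 16 animals, 23 genes were called (20 higher and 3 lower in LP4). When the first library of animal 2 took the place of its repeat, 52 were called.

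**Figure D5:**
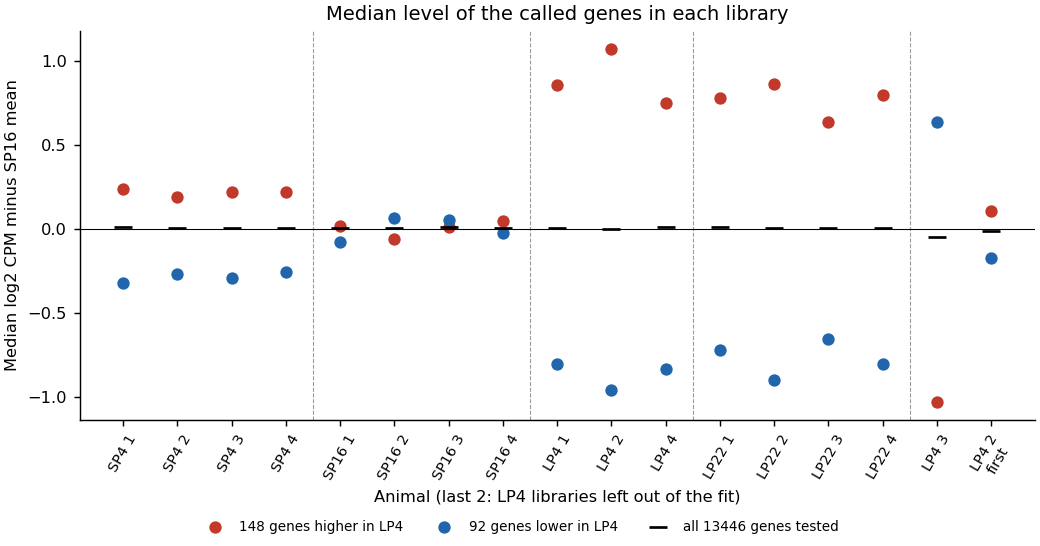
Median log2 CPM minus the SP16 mean (vertical axis) of the 148 genes higher (red) and the 92 genes lower (blue) in LP4, with a black bar for all genes tested, in each animal and in the LP4 libraries left out. LP4 animals 1, 2 and 4 and the LP22 animals show the red points high and the blue points low, and LP4 animal 3 shows the reverse.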

How the data were processed

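PT RNA was sequenced from standard Illumina cDNA libraries, 18 in all. Per the submitters' notes and the study's methods, the authors aligned reads with Bowtie to Oar_v3.1, used SAMtools on the alignments and took read counts for each gene from HTSeq; versions, strand and feature type are not given in the sources used here. The deposited values are raw counts per gene, not normalized. Lines that name no gene were left out of library sizes; reads in no counted feature were 78.6% to 83.0% of aligned reads in the libraries used, and gene counts 16.8% to 21.3%.

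Both libraries of SP4 animal 1 were summed, giving 15 animals. R 4.3.3 with edgeR 4.0.16 was used. Low genes were removed with filterByExpr (count of 10 and total of 15), and the rest scaled by TMM and tested, 2-sided, by glmQLFit and glmQLFTest in 1 fit of the 4 groups. Log2 CPM values used a prior count of 2; values of libraries left out were scaled together with the rest in a separate set of 17. The SE of a log2 fold change was derived from the test, as its absolute value divided by the square root of the F statistic. Samples were grouped by their titles. The members, lists, settings and naming rule were chosen with earlier results of these data known. The rule named, in each direction, the gene with the largest fold change and the gene with the largest difference in mean CPM among genes with FDR under 0.05, at least 10 CPM and no overlap; 114 higher and 77 lower genes could be named. Gene symbol lists could not be applied. Alternatives were RLE and upper-quartile scaling, DESeq2 1.42.0, other filters, a robust fit, other choices of libraries, a replicate block, a fold threshold, leaving out single animals and, added after seeing the data, an exact test and the first library of LP4 animal 2. Scripts were tested on simulated data. Figures used matplotlib 3.10.9 in Python 3.11.15.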

Additional observations from a re-analysis of the deposited data

Results flagged for a closer look

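ENSOARG00000013347, lower in LP4, stood at 1493 CPM in SP16 animal 3, apart from the other SP16 animals at 1404 to 1417 CPM. Among the 19 groups examined for such a gap this was the 1 found, and chance gives about 1 in 20, or 0.95 of 19. Each group held 4 samples of SP16, SP4 or LP22. LP4, with 3 animals, was too small for this check and was not examined.

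Reads in no counted feature, which entered no comparison, had a median share of 82.2% of aligned reads over the LP4 and SP16 libraries used.

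Outside the test, 2 genes had at least 3 counts in every LP4 animal, with 3 to 9 counts, and 0 counts in every SP16 animal. Both fell below the filter on low counts. In SP4 and LP22 animals the first had 0 or 1 count each, and the second had 0 to 4 counts in SP4 and 0 in LP22. At counts this low no difference is read from them.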

How the results depend on the processing

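The LP4 against SP16 count of 240 moved to 23 with all 18 libraries, 52 with the first library of LP4 animal 2 in place of its repeat, 122 in a fit of only LP4 and SP16, 113 when a log2 change of 1 or more was also required, and 114 to 321 leaving out single animals, where it fell over 1.5 times without LP4 animal 2 (135) and SP16 animals 1 (149), 2 (114) and 4 (141). The replicate number as a block gave 132 calls. Same-numbered LP4 and SP16 animals deviated together at r = −0.0118, −0.0543 and −0.0021, and 0 of 3 LP4 animals correlated best with their own number. SP4 and LP22 animals were not compared in this way. Whether the number stands for a shared step of handling was not tested. In the other 12 of 21 settings the count stayed within 1.5 times, from 194 to 347. The LP22 against SP4 count of 376 moved to 24 with all libraries, 140 at the fold threshold, 130 with the first library of LP4 animal 2, and 246 (without LP22 animal 2) to 350 leaving out single animals. The difference between contrasts, 0 in the reported fit, was 31 with DESeq2, 25 with no filter, 1 with the block, and 0 to 36 leaving out single animals, 36 of them without SP16 animal 3. The cause of these changes was not tested. Some settings hold fewer samples or a stricter threshold. Settings that changed only LP4 libraries left the LP22 and SP4 animals as they were, but all groups share the filter, the scaling and the estimate of the spread. Of the 240 genes called, 27 took the opposite sign with all 18 libraries. With the first library of LP4 animal 2 in place of its repeat, 8 did. In each other setting 0 did. None of the 4 named genes reversed. ENSOARG00000020127 kept its call in 20 of 21 settings, ENSOARG00000000465 in 19 of 21 and ENSOARG00000013347 in 8 of 21. ENSOARG00000023258 kept it in 10 of 20, as DESeq2 gave it no adjusted p. At this depth, 6 of the 13446 genes tested averaged under 1 CPM.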

Other observations

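In 12 genes LP4 was below SP16 and LP22 above SP4 by over 2 on the log2 scale in both, while 0 genes showed the opposite arrangement. They were found by looking at both contrasts, so no test is given. None was called in LP4 against SP16, and 2 were called in LP22 against SP4. The median level of the 12 genes was 9.73, 9.47, 1.39 and 6.66 CPM in SP16 animals 1 to 4, and 1.43, 0.42 and 0.84 CPM in LP4 animals 1, 2 and 4. It was 11.5, 1.99, 8.87 and 0.88 CPM in LP22 animals 1 to 4 and 0.36 to 0.68 CPM in SP4. By this median, SP16 animals 1, 2 and 4 and LP22 animals 1 and 3 were high. Summed over the 12 genes the order was another: LP22 animal 2 had 3121 CPM, LP22 animals 1, 3 and 4 had 221, 247 and 103 CPM, SP4 animal 1 had 240 CPM and the other SP4 animals 9.48 to 15.8 CPM. The sum was 25.3 to 163 CPM in SP16 and 10.9 to 24.1 CPM in LP4.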
